A study of Sus scrofa domesticus with 2 samples.

Results

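Integrins are the receptors by which vascular cells hold on to the matrix around them. Each is a pair of 1 alpha and 1 beta subunit, and the pair sets the ligand. ITGB1, the beta 1 chain, pairs with ITGA1 and ITGA2 to bind collagen, with ITGA5 to bind fibronectin and with ITGA6 to bind laminin. ITGAV pairs with ITGB3 or ITGB5 to bind vitronectin and other proteins that carry an RGD sequence. ITGB4 pairs with ITGA6 alone, and this laminin receptor anchors cells through hemidesmosomes. ITGB3 with ITGAV is a known receptor of sprouting endothelium and of smooth muscle cells, and ITGA1 is known from smooth muscle and fibroblasts.

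The transcripts of these 9 genes were read in cultured pig endothelial cells (ECs). They were chosen by name, as the listed subunits that the feature tables name, and all 9 were found among 22804 genes, 24 of them integrin subunits. The cells came from 2 cultures, Lung_EC and Aorta_EC, of Sus scrofa domesticus: digestion buffer was injected into a piece of lung or into aorta taken close to it, and the released cells were grown in the same medium with 10% fetal calf serum. Each culture gave 1 library of 3′ single-cell RNA-seq (10x Genomics), so no difference between lung and aorta has a replicate check, culture and library cannot be told apart, and intervals below cover counting error only. The study's methods name slaughterhouse pigs, a hybrid of Landrace, Large White and Duroc, for its fresh tissues, while the number of pigs behind the cultures, their sex and the passage are not given in the sources used here, and no sort is described. The level of a gene in a class of cells is the sum of its unique molecular identifiers (UMIs, the count of captured transcripts) over the cells, scaled to 1000000 UMIs of that class (counts per 1000000, CPM), with an exact Poisson 95% interval. Each UMI comes from the 3′ end, so a level is compared between cells for 1 gene and not between genes.

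After the study's limits (over 200 and under 5000 detected genes, under 30% mitochondrial UMIs), lung kept 5683 of 5946 barcodes and aorta 246 of 1185. The study describes more aorta cells than its stated limits left here, so these aorta cells are not the study's own set. The upper limit alone took out 709 aorta barcodes, so aorta values are given for the 246 cells and, in the same library, for the 955 cells kept without that limit, which include those 246. Median depth was 9453 UMIs per cell in lung, 4691 in the 246 aorta cells and 52080 in the 955. Cells were clustered without the integrin and marker genes and named from markers. Lung held 4932 endothelial-like cells, 333 collagen-high cells (raised COL1A1 and COL1A2, the chains of type I collagen), 89 immune-like and 329 unnamed cells. Aorta held 159 endothelial-like, 21 collagen-high and 66 EndMT-like cells (raised ACTA2, few endothelial markers), and without the upper limit 632, 142, 66 and 115 unnamed. In the lung, 11 endothelial markers summed to 2618 CPM in the endothelial-like class but 324.6 CPM in collagen-high cells, and 7 fibroblast markers to 108.3 and 11733 CPM. Without the upper limit the aorta sums were 2337 and 108.8 CPM, and 351.1 and 10731 CPM. The unnamed lung cells are not free of endothelial cells: their 11 endothelial markers summed to 2682 CPM. Of them, 289 formed a cluster that held all 11 but was too shallow for a name. Of the 159 endothelial-like aorta cells, 72 formed a cluster with a median of 0.213% mitochondrial UMIs and 2380 UMIs, in which 6 of the 11 endothelial markers were held. In the 66 EndMT-like cells the median was 0.0987% and 0 of the 11 were held. The 2 libraries shared 5 barcode sequences.

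The genes lie on 6 chromosomes of the Sscrofa11.1 assembly (RefSeq annotation). ITGA1 (ENSSSCG00000016885, chr16:32130265-32309917, plus strand) and ITGA2 (ENSSSCG00000016887, chr16:32336240-32440311, plus strand) are neighbours, 26322 bases apart with 0 protein-coding genes between them. ITGA6 (ENSSSCG00000015955, chr15:78504108-78591779, plus) and ITGAV (ENSSSCG00000016027, chr15:91604666-91711843, plus) share chromosome 15. ITGB4 (ENSSSCG00000017204, chr12:5651292-5685601, minus) and ITGB3 (ENSSSCG00000017306, chr12:16694466-16752228, minus) share chromosome 12. ITGA5 (ENSSSCG00000000293, chr5:19587361-19610580, minus), ITGB1 (ENSSSCG00000011101, chr10:56078393-56130608, minus) and ITGB5 (ENSSSCG00000037905, chr13:135468111-135587483, plus) stand alone.

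The 250 bases before the annotated start are shown for 4 genes whose levels ran opposite ways between the cell classes: the adjacent ITGA1 and ITGA2, and ITGB3 and ITGB4. They are read 5′ to 3′ on the strand of the gene, from chr16:32130015-32130264, chr16:32335990-32336239, chr12:16752229-16752478 and chr12:5685602-5685851 of RefSeq Sscrofa11.1. Capitals mark matches on either strand to the GC box (GGGCGG) or the E box CACCTG.
ITGA1: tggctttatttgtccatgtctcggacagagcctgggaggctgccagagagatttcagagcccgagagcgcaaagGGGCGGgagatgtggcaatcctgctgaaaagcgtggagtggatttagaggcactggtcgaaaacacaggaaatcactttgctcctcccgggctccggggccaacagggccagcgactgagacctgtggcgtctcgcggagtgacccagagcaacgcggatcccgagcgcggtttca
ITGA2: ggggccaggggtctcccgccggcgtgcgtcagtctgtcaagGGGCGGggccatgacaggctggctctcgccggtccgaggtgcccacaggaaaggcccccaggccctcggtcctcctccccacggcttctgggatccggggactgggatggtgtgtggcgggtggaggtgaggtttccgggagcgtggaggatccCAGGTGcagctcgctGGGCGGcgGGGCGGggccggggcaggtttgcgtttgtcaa
ITGB3: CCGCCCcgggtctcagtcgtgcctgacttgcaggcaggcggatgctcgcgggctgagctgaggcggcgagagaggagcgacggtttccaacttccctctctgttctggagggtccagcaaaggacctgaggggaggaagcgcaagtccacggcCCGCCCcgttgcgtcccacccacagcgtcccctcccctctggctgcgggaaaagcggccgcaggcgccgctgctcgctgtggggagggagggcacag
ITGB4: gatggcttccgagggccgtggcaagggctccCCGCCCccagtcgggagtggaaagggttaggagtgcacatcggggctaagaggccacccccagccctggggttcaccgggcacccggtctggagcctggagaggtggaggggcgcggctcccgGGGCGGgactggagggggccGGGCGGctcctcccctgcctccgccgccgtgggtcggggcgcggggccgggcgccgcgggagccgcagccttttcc
The GC box, a binding site of SP1 family factors, had 1 match before ITGA1, 3 before ITGA2, 2 before ITGB3 and 3 before ITGB4, and 45.9% of 19556 windows of protein-coding genes held at least 1. The E box CACCTG, bound by SNAI and ZEB repressors, had 1 match, before ITGA2, against 19.6% of windows. The other motifs searched had 0 matches in these 4 windows: the ETS core CCGGAAG (7.77% of windows), the GATA motif AGATAA (8.08%), TATAAA (9.77%), the TEAD motif GGAATG (10.3%) and the AP-1 motif TGANTCA (5.27%). GC content was 59.6% before ITGA1, 71.6% before ITGA2, 69.6% before ITGB3 and 76.4% before ITGB4, against a median of 57.6% over all windows. A match is a run of letters only, and the counting used Ensembl gene models whose starts may differ.

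Collagen-high cells carried another set of integrin transcripts than the endothelial-like cells beside them. In both libraries ITGB3 and ITGA1 were higher in collagen-high cells and ITGB5 was lower, while ITGB1 and ITGA5 differed by less than 1.6-fold. ITGA2 was lower in the lung and ITGB4 in the aorta, each in the library whose endothelial-like cells had it above 20 CPM. Called here means a ratio of at least 2-fold with at least 20 CPM in the higher class. In the lung 2 members were called higher and 2 lower of 7 that reached 20 CPM, where 6.75% of 6063 genes were called higher and 9.86% lower. In the 246 aorta cells it was 2 higher and 2 lower of 7 (16.1% and 16.5% of 6670 genes), and without the upper limit 2 higher and 3 lower of 7 (7.92% and 12.6% of 6302 genes). ITGA6 stayed under 20 CPM in every class, ITGB4 in the lung and ITGA2 in the aorta, so these had no call.

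**Figure D1:**
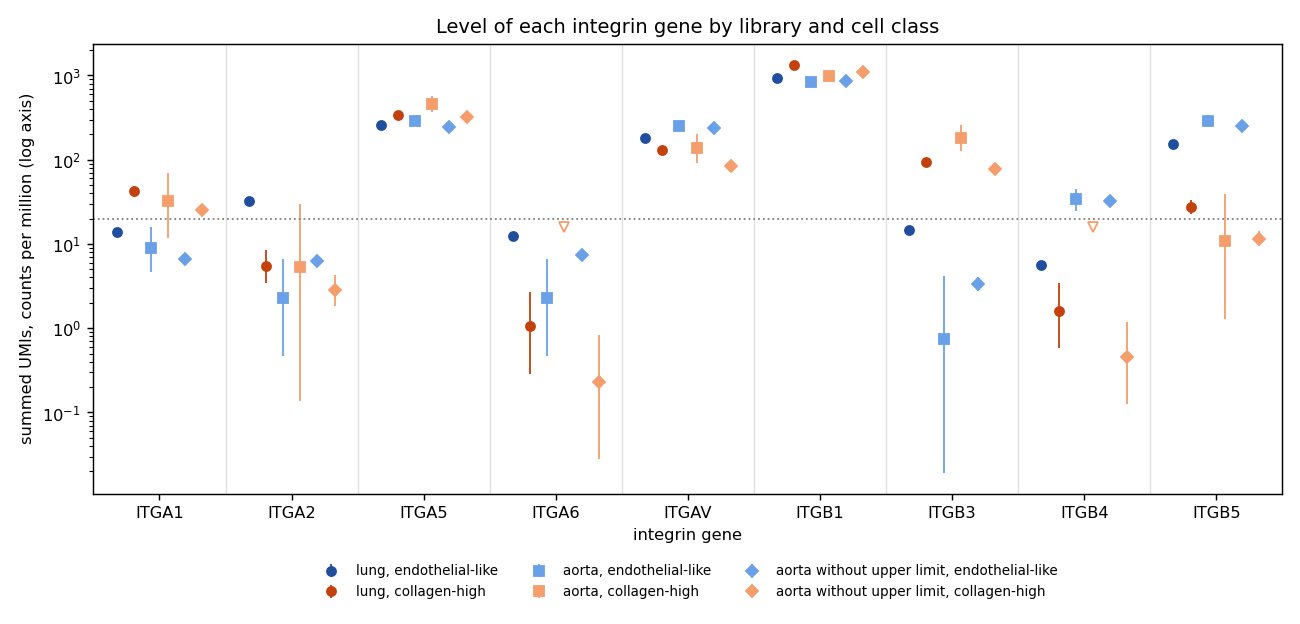
Level of each of the 9 integrin genes (x axis) in CPM of summed UMIs (log y axis) in endothelial-like (blue) and collagen-high cells (orange) of lung (circles), aorta within the limits (squares) and aorta without the upper gene limit (diamonds). Bars are exact Poisson 95% intervals, open triangles mark 0 UMIs drawn at the level of 3 counts, and the dotted line is 20 CPM. ITGB3 sits at 94.2 CPM in lung collagen-high cells against 14.5 CPM in endothelial-like cells, and ITGB5 at 27.7 against 154 CPM.

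ITGB3, the beta 3 chain, gave the widest contrast on the collagen-high side. Its level in lung was 14.5 CPM (13.5 to 15.6, 730 UMIs) in the endothelial-like class against 94.2 CPM (84.7 to 105, 357 UMIs) in collagen-high cells, a ratio of 6.50 (5.71 to 7.39). The 955 aorta cells gave 3.35 CPM (118 UMIs) against 78.1 CPM (681 UMIs), a ratio of 23.3 (19.1 to 28.6). In these 2 cell sets the collagen-high levels lay near each other and the endothelial-like levels did not. Within the limits 1 UMI in endothelial-like cells stood against 34 UMIs in 21 collagen-high cells (0.752 and 182 CPM), a ratio of 243 with an interval from 40.7 to 9868. Those 34 UMIs came from 13 of the 21 cells. After each cell was thinned to 5000 UMIs, 34.6% of 312 lung collagen-high cells (29.3 to 40.2, exact Clopper-Pearson 95%) had an ITGB3 UMI against 7.09% of 4826 endothelial-like cells. The thinned aorta shares without the upper limit were 29.0% of 138 and 1.43% of 628 cells.

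ITGA1, the alpha 1 chain that favours basement membrane collagen, followed the same side at a lower level. Lung endothelial-like cells had 14.0 CPM (13.0 to 15.1, 706 UMIs) and collagen-high cells 41.96 CPM (35.7 to 49.0, 159 UMIs), a ratio of 2.99 (2.504 to 3.56). The aorta gave 6.62 CPM (233 UMIs) and 25.6 CPM (223 UMIs) without the upper limit, a ratio of 3.86 (3.20 to 4.66). Within the limits 12 and 6 UMIs gave 9.02 and 32.2 CPM, a ratio of 3.57 with a wide interval (1.10 to 10.3). The direction was thus the same in all 3 cell sets, and in lung the ratio was larger than that of 96.0% of genes. Thinned shares in the lung were 17.0% of collagen-high and 6.44% of endothelial-like cells.

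ITGB5, the other partner of ITGAV, ran against ITGB3. Lung endothelial-like cells had 154 CPM (151 to 158, 7763 UMIs) and collagen-high cells 27.7 CPM (22.7 to 33.5, 105 UMIs), which was 5.56-fold lower (4.59 to 6.81). Without the upper limit, aorta gave 250 CPM against 11.6 CPM (101 UMIs), 21.6-fold lower (17.8 to 26.5). Within the limits it was 292 CPM against 2 UMIs, 27.2-fold lower with an interval from 7.47 to 225. Endothelial transcripts were also present in these cells. PECAM1, an endothelial marker that other cell types can also carry, was at 142 CPM in lung and 14.2 CPM in aorta collagen-high cells without the upper limit. Endothelial-like cells had it at 1597 and 1292 CPM. In thinned lung collagen-high cells 25.3% had a PECAM1 UMI, 4.81% a CDH5 UMI and 9.94% an ITGB5 UMI, against 99.9%, 53.6% and 50.8% of endothelial-like cells. The level of ITGB5 relative to endothelial-like cells (27.7 of 154 CPM) was above that of PECAM1 (142 of 1597 CPM). What endothelial transcripts in these cells add to ITGB5 was not tested. The thinned aorta shares without the upper limit were 6.52%, 2.90% and 6.52% in collagen-high cells. With collagen-high cells holding a PECAM1 or CDH5 UMI and endothelial-like cells holding a COL1A1 or COL1A2 UMI left out, a choice made after seeing the data, the lung log2 ratio of ITGB5 was -3.63 instead of -2.48.

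ITGA2, the alpha 2 chain of a collagen receptor also carried by platelets, was on the endothelial side in the lung. It had 32.6 CPM (31.1 to 34.2, 1643 UMIs) in endothelial-like cells and 5.54 CPM (3.43 to 8.47, 21 UMIs) in collagen-high cells, 5.89-fold lower (3.84 to 9.53). Its neighbour ITGA1 was thus higher and ITGA2 lower in the same lung collagen-high cells. Aorta cells without the upper limit had ITGA2 at 6.19 CPM (218 UMIs) and 2.87 CPM (25 UMIs), a ratio of 0.463 (0.293 to 0.702) that has no call under 20 CPM. Within the limits 3 and 1 UMIs allow no comparison.

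The laminin receptor chains ITGA6 and ITGB4 were near the detection limit in collagen-high cells. ITGB4 had 32.3 CPM (30.4 to 34.2, 1136 UMIs) in aorta endothelial-like cells without the upper limit and 0.459 CPM (4 UMIs) in collagen-high cells, 70.3-fold lower (27.4 to 259). Within the limits 45 UMIs (33.8 CPM) stood against 0, which is 2.10-fold lower with 3 counts as the floor. The exact interval starts at 1.64-fold lower, so the call within the limits rests on this floor. Lung had 283 UMIs (5.62 CPM) and 6 UMIs (1.58 CPM). After thinning, ITGB4 was seen in 15.4% of aorta endothelial-like cells without the upper limit and in 0 of 138 collagen-high cells, which allows up to 2.64% by the exact interval. ITGA6, its only partner, had 12.3 CPM (622 UMIs) against 1.06 CPM (4 UMIs) in the lung, a ratio of 0.0855 (0.0232 to 0.220). Aorta cells without the upper limit had 7.33 CPM (258 UMIs) against 2 UMIs, a ratio of 0.0313 (0.00377 to 0.114).

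**Figure D2:**
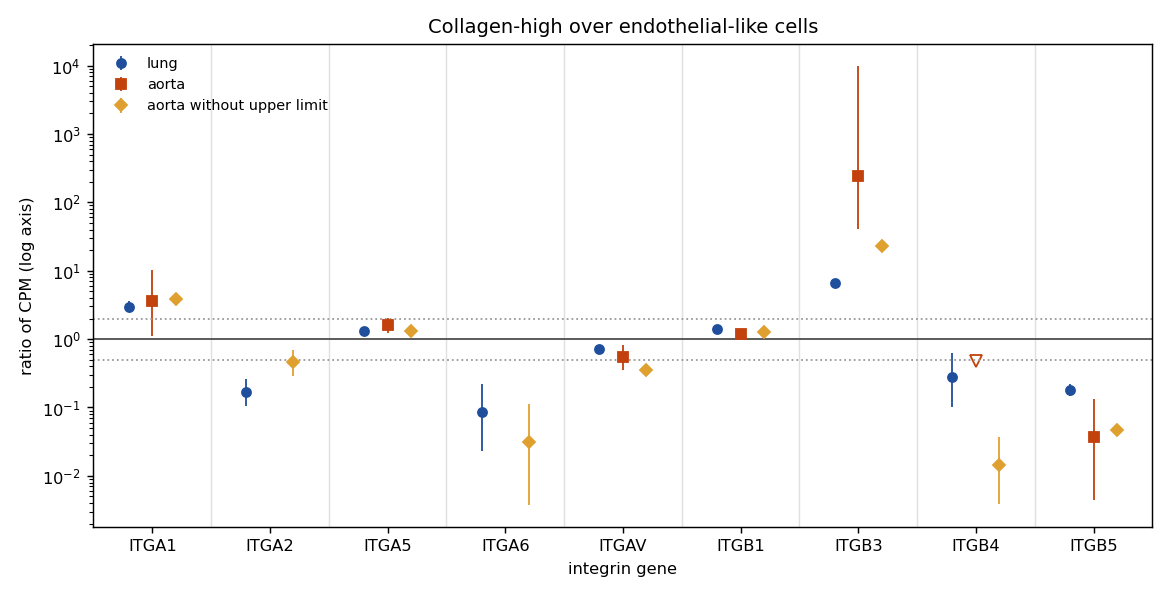
Ratio of collagen-high to endothelial-like CPM (log y axis) for each integrin gene (x axis) in lung (blue circles), aorta within the limits (red squares) and aorta without the upper gene limit (yellow diamonds). Bars are exact 95% intervals for counting error, the open triangle marks 0 UMIs in collagen-high cells set at 3 counts, dotted lines mark 2-fold, and genes with 3 UMIs or fewer in both classes are left out. ITGA1 and ITGB3 lie above 2-fold and ITGB5 below in all 3 sets.

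ITGB1, ITGA5 and ITGAV were present in both classes at closer levels. ITGB1, the shared beta chain, had 944 CPM (936 to 953) in lung endothelial-like and 1315 CPM (1279 to 1352) in lung collagen-high cells, a ratio of 1.39 (1.35 to 1.43). Its aorta ratio was 1.26 (1.23 to 1.29) without the upper limit, from 867 and 1092 CPM, and 1.18 (1.00 to 1.38) within the limits. ITGA5, the fibronectin receptor chain, had 261 CPM against 341 CPM in lung (ratio 1.31, 1.23 to 1.38) and 245 against 317 CPM in the aorta without the upper limit (1.29, 1.24 to 1.35). Both genes were thus slightly higher in collagen-high cells of both libraries, under the 2-fold line. ITGAV ran the other way: 182 CPM (178 to 186) against 129 CPM (118 to 141) in lung, a ratio of 0.711 (0.648 to 0.779). Aorta values without the upper limit were 240 CPM against 83.6 CPM, 2.86-fold lower (2.66 to 3.09), the third member called lower there. Within the limits its ratio was 0.551 (0.355 to 0.822).

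**Figure D3:**
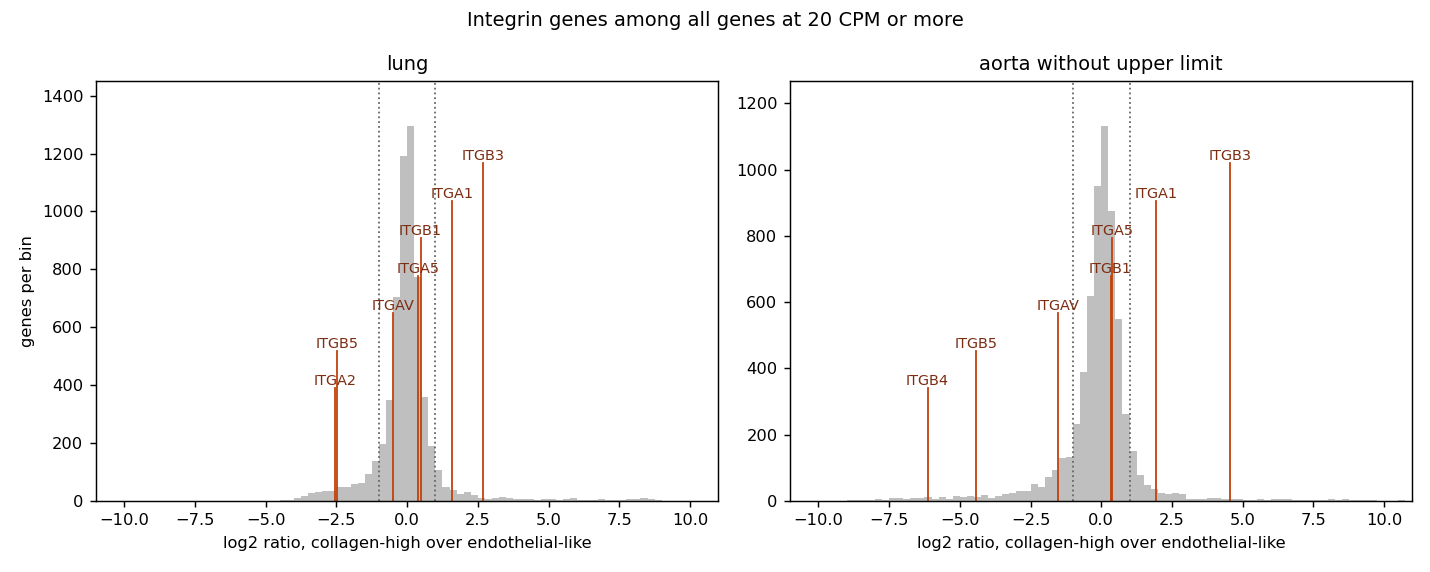
Number of genes (y axis) by log2 ratio of collagen-high over endothelial-like CPM (x axis, bins of 0.25) among all genes at 20 CPM or more in the higher class, for lung and for aorta without the upper gene limit, with the integrin genes marked at their own ratio. Dotted lines mark 2-fold, and the height of a red line carries no value. ITGB3, at 2.70 in lung and 4.54 in aorta, is above 97.7% and 99.0% of genes.

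The 333 lung collagen-high cells were of 2 clusters, and ITGB3 and ITGA1 differed between them. Cluster 7 (242 cells) was led by ACTG2, COL6A1 and PDGFRB, of which PDGFRB is a known mural cell receptor, and cluster 9 (91 cells) by WT1, IGFBP5 and COL3A1. ITGB3 was at 56.4 CPM (158 UMIs) in cluster 7 and 202 CPM (199 UMIs) in cluster 9, 3.58-fold lower in cluster 7 (2.89 to 4.44). ITGA1 was at 50.7 CPM (142 UMIs) in cluster 7 and 17.2 CPM (17 UMIs) in cluster 9, a ratio of 2.94 (1.77 to 5.19). So 1 member was called each way of 6 at 20 CPM, where 2.83% and 2.78% of 5826 genes were called higher and lower. ITGA5 was at 370 and 261 CPM (ratio 1.41, 1.23 to 1.63), ITGB1 at 1362 and 1183 CPM, and ITGAV at 126 and 139 CPM. ITGB5 was low in both, at 30.0 and 21.3 CPM. The levels of ITGA1 in cluster 9 and in lung endothelial-like cells (14.0 CPM) lay close, so the lung contrast of ITGA1 lay in cluster 7, whereas ITGB3 was above the endothelial-like level in both clusters. The aorta collagen-high cells, led by CSPG4, COL6A1 and PCOLCE2, formed 1 cluster.

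Between the endothelial-like cells of the 2 cultures, ITGA2 was higher in lung and ITGB4 lower. ITGA2 was at 32.6 CPM in lung against 6.19 CPM in the aorta without the upper limit, a ratio of 5.27 (4.57 to 6.09). Within the limits the aorta had 3 UMIs (2.26 CPM), a ratio of 14.5 with an interval from 4.94 to 70.2. ITGB4 was at 5.62 CPM in lung against 32.3 CPM, 5.75-fold lower (5.04 to 6.57), and 33.8 CPM within the limits, 6.02-fold lower (4.29 to 8.27). These were the members called, 1 higher and 1 lower of 6. Over all genes 3.34% were called higher and 6.2% lower of 6078 within the limits, and 1.29% and 3.08% of 5906 without the upper limit. The thinned shares kept these directions: ITGA2 in 14.5% of lung and 3.34% of aorta cells without the upper limit, ITGB4 in 2.53% and 15.4%.

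Other members differed less, or at levels under 20 CPM. ITGB3 was at 14.5 CPM in lung and 3.35 CPM in aorta endothelial-like cells without the upper limit, a ratio of 4.32 (3.55 to 5.30), and ITGA1 at 14.0 and 6.62 CPM, a ratio of 2.12 (1.82 to 2.47). ITGA6 had 12.3 and 7.33 CPM (ratio 1.68, 1.45 to 1.96). These genes leaned to lung at low levels. COL1A1 was at 16.9 CPM in lung endothelial-like and 5344 CPM in lung collagen-high cells, where ITGB3 was at 14.5 and 94.2 CPM. COL1A1 also chose the collagen-high class, and what RNA carried over from these cells adds to ITGB3 was not tested. Thinned shares of endothelial-like cells with a UMI were 6.20% for COL1A1 and 7.09% for ITGB3 in lung, and 9.55% and 1.43% in the aorta without the upper limit. ITGB5 leaned to aorta, with 154 and 250 CPM, a ratio of 0.616 (0.597 to 0.635), and 0.528 (0.477 to 0.587) against the 292 CPM within the limits. ITGAV gave 0.759 (0.736 to 0.781) and 0.718 (0.644 to 0.802). ITGB1 (1.09, 1.07 to 1.10) and ITGA5 (1.07, 1.04 to 1.10) were close to 1 without the upper limit, and within it ITGB1 was at 1.13 (1.07 to 1.21) and ITGA5 at 0.905 (0.818 to 1.00).

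The members at 20 CPM were lower in the 72 aorta cells with few mitochondrial UMIs than in the other endothelial-like aorta cells. In that cluster ITGB1 was at 211 CPM, ITGA5 at 51.5, ITGAV at 32.8, ITGB5 at 122 and ITGB4 at 4.68 CPM, against 951, 334, 296, 324 and 39.4 CPM in the other 87 endothelial-like cells. The share of all genes lower in that cluster was not counted, so this is not read as particular to integrins. The remaining members had 12 UMIs or fewer each over the whole class. With cells under 1% mitochondrial UMIs left out, the log2 ratio of lung over aorta endothelial-like cells for ITGB5 was -1.07 instead of -0.92, which is past the 2-fold line. Without the upper limit nearly the same cells formed a cluster that had no name, since its median depth was too far below that of the library. The EndMT-like cells had low levels of all members: 68.1 CPM for ITGB1 (21 UMIs), 13.0 CPM for ITGB5 (4 UMIs) and 2 UMIs or fewer for each of the others. Against endothelial-like cells 5 of 5 members at 20 CPM were called lower there, where 39.1% of 6155 genes were called lower and 14.9% higher.

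Between collagen-high cells of lung and aorta, ITGB5 was called higher in lung, at 27.7 CPM against 11.6 CPM without the upper limit (ratio 2.39, 1.80 to 3.17), where 1.7% of 5838 genes were called higher and 2.21% lower. The endothelial transcripts named above move with it, and their part in the ratio was not tested. Within the limits the 2 aorta UMIs left the ratio between 0.697 and 21.6 (11.3% called higher and 14.0% lower of 6367 genes). ITGA1 (1.64, 1.33 to 2.02), ITGAV (1.55, 1.38 to 1.74) and ITGB3 (1.21, 1.06 to 1.37) were below 2-fold without the upper limit. Within it ITGB3 was lower in lung, at 94.2 against 182 CPM (ratio 0.516, 0.363 to 0.757), so its order between the libraries turned with the limit.

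**Figure D4:**
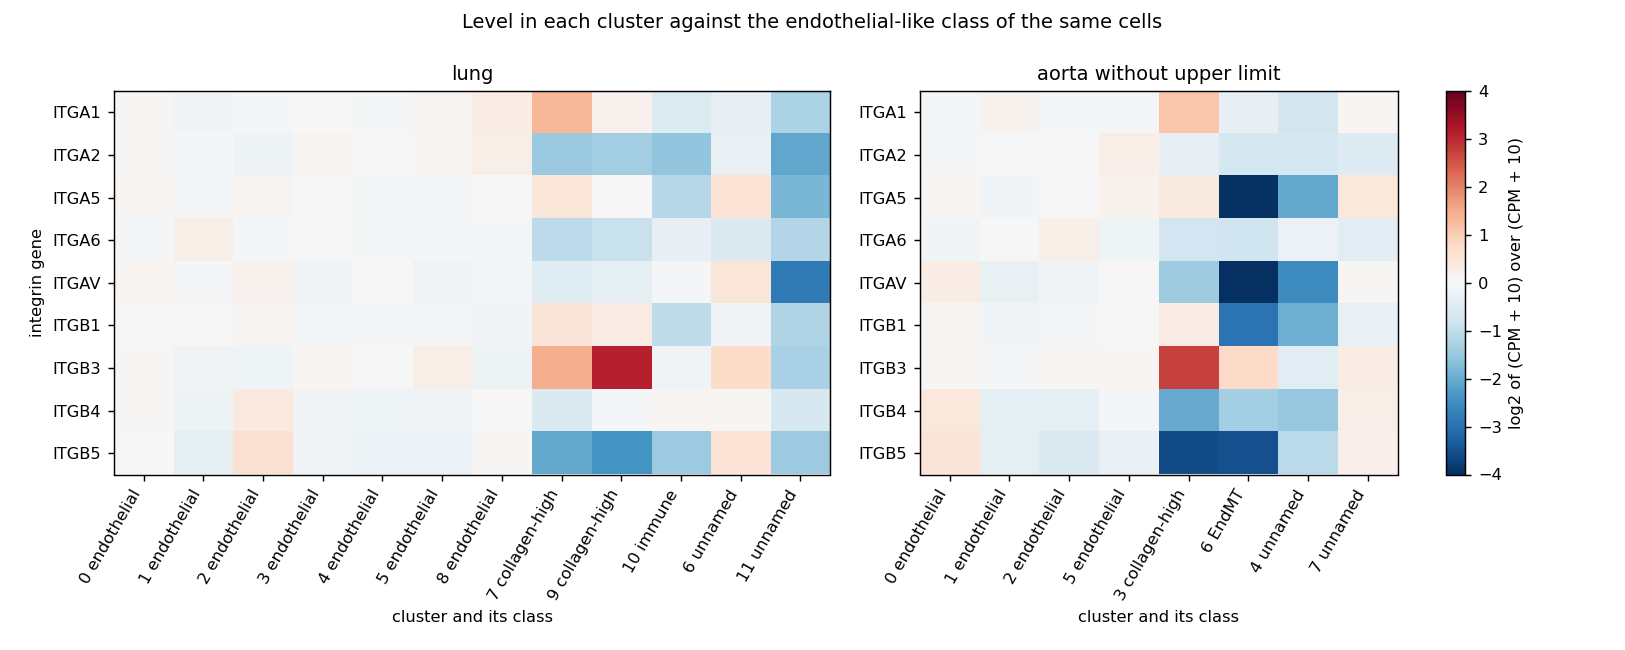
Colour gives the log2 ratio of CPM + 10 in each cluster (x axis, with its class) to CPM + 10 in the endothelial-like class of the same cells, for each integrin gene (y axis), in lung and in aorta without the upper gene limit, with values beyond 4 drawn at the end of the scale. ITGB3 is red in the collagen-high clusters and ITGB5 blue, and most endothelial-like clusters are pale.

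Among the endothelial-like clusters, ITGB5 and ITGB4 varied and ITGB1 and ITGA5 hardly did. Over 7 lung clusters ITGB5 ran from 114 CPM in a cluster led by CDC20, CCNB1 and BUB1B to 241 CPM in a cluster led by SLPI, CFD and CRYAB, 2.11-fold, where the median of 5440 genes was 1.41-fold. ITGB4 ran from 3.49 to 10.6 CPM between the same clusters. ITGB1 spanned 1.16-fold, ITGA5 1.17-fold and ITGAV 1.26-fold. Over 4 aorta clusters without the upper limit ITGB5 ran from 165 to 366 CPM (2.22-fold) and ITGB4 from 22.9 to 46.8 CPM (2.05-fold), against a median gene of 1.37-fold, and again the cluster with SLPI and CFD among its leading genes was highest. ITGB1 spanned 1.17-fold and ITGA5 1.19-fold there.

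Both genes were lower in the clusters with cell cycle markers raised. Relative to endothelial-like clusters with neither S nor G2M markers raised, ITGB5 in lung was at 0.708 (0.670 to 0.749) in S and 0.642 (0.608 to 0.679) in G2M clusters, from 190, 135 and 122 CPM. The aorta ratios without the upper limit were 0.581 (0.553 to 0.611) and 0.497 (0.467 to 0.528), from 332, 193 and 165 CPM. This was the 1 member called in these comparisons, lower in aorta G2M clusters, where 2.41% of 6015 genes were called lower and 6.5% higher. The other shares called lower and higher were 0.508% and 4.17% of 5713 genes in lung G2M, 0.612% and 4.34% of 5718 in lung S, and 1.87% and 8.74% of 6155 in aorta S clusters. ITGB4 went the same way, at 0.526 in S and 0.528 in G2M clusters of the aorta, from 43.5, 22.9 and 22.9 CPM. Among clusters with neither marker set raised, the cluster with SLPI and CFD among its leading genes had more ITGB5 than the rest. Lung gave 241 against 153 CPM, 1.57-fold (1.48 to 1.67), and aorta without the upper limit 366 against 208 CPM, 1.76-fold (1.62 to 1.90). No member was called there, where 0.53% of genes were called higher and 1.02% lower in lung, and 2.15% and 1.38% in aorta. The reference of the ratios and of the call above included that cluster. ITGB4 was also higher in it than in the rest, at 10.6 against 6.14 CPM in lung and 46.8 against 31.3 CPM in aorta without the upper limit. The S and G2M levels of ITGB5 and ITGB4 lay under the rest too, but closer to it. The aorta S cluster also had 4 G2M markers raised, so S and G2M are not cleanly split there.

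The lung immune-like cells, 89 cells led by LYZ, FCER1G and GPNMB that also held all 11 endothelial markers, had less of most members. ITGB1 was at 458 CPM, ITGA5 at 114 CPM and ITGB5 at 50.1 CPM, and ITGAV, at 178 CPM, was level with endothelial-like cells. Of 5 members at 20 CPM, 4 were called lower and 0 higher, against 4.73% and 10.6% of 6547 genes.

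**Figure D5:**
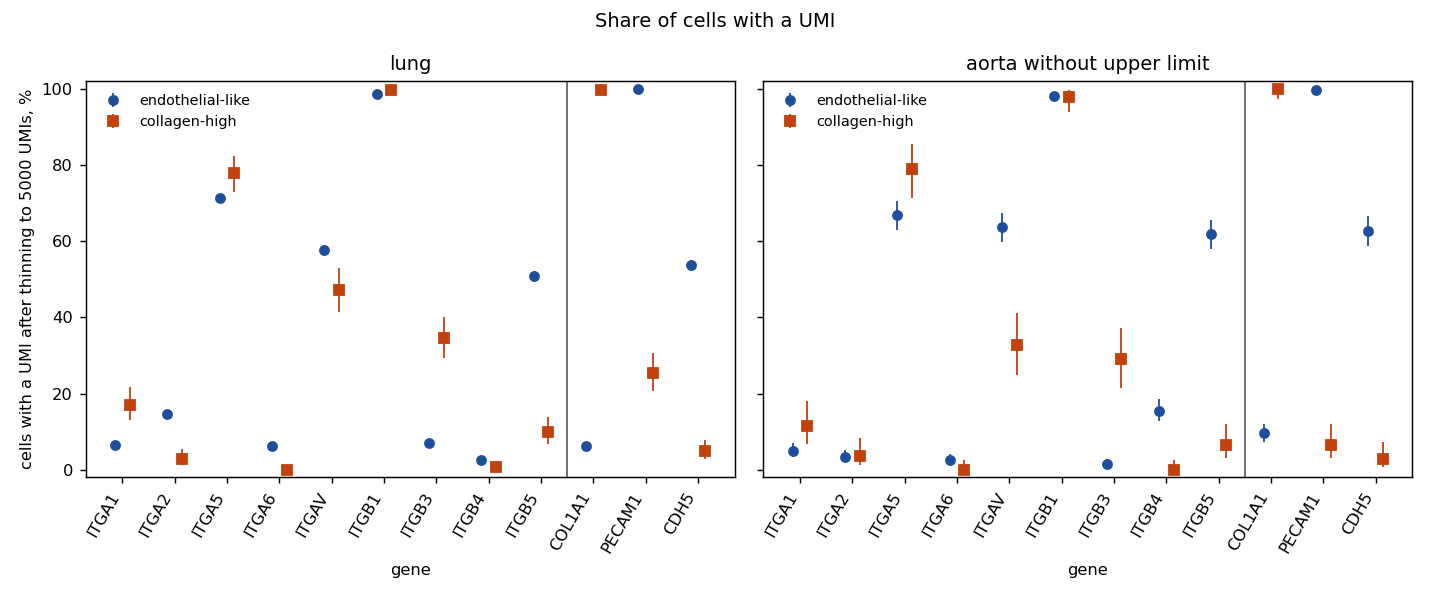
Share of cells with a UMI of each gene after thinning each cell to 5000 UMIs (y axis, %, bars are exact Clopper-Pearson 95% intervals) in endothelial-like (blue circles) and collagen-high cells (orange squares) of lung and of aorta without the upper gene limit. COL1A1, PECAM1 and CDH5 right of the line show how often a marker of the other class was seen, 6.20% for COL1A1 in lung endothelial-like and 25.3% for PECAM1 in lung collagen-high cells.

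For the pairs below, the share of cells with the beta chain was compared with and without a UMI of the alpha chain. The intervals overlapped in each, except for ITGB1 by ITGA5 in aorta cells within the limits. In thinned lung endothelial-like cells ITGB5 was seen in 51.7% of 2777 cells with an ITGAV UMI (49.9 to 53.6) and in 49.5% of 2049 cells without (47.3 to 51.7), and 29.8% of cells had both. In lung collagen-high cells ITGB3 was seen in 34.0% of 147 cells with and 35.2% of 165 cells without ITGAV. ITGA6 and ITGB4, the laminin pair, were seen together in 4 of 305 lung endothelial-like cells with ITGA6 (1.31%, 0.358 to 3.32), against 2.61% of cells without it. For aorta cells without the upper limit it was 3 of 16 cells with ITGA6 (4.05% to 45.6%) and 15.4% of 612 cells without (12.6 to 18.5). ITGB1 was seen in 98.7% of lung endothelial-like cells, and in 99.0% of those with ITGA1 and 98.7% of those without. In the 85 thinned aorta endothelial-like cells within the limits, ITGB1 was seen in 100% of 68 cells with ITGA5 (94.7 to 100) and 76.5% of 17 without (50.1 to 93.2). For ITGAV it was 100% of 55 cells with (93.5 to 100) and 86.7% of 30 without (69.3 to 96.2). That class includes the cluster of 72 cells with few mitochondrial UMIs, whose part in these shares was not tested. Neither difference was seen in the 628 cells without the upper limit. There ITGB1 was in 97.6% of 419 cells with ITGA5 and 99.0% of 209 without, and for ITGAV in 98.0% of 400 and 98.2% of 228. ITGB5 in collagen-high cells was seen in 12.2% of cells with ITGAV (7.42 to 18.7) and 7.88% without (4.26 to 13.1) in lung, and in 5 of 45 (3.71% to 24.1%) and 4 of 93 cells (1.18% to 10.6%) in the aorta without the upper limit. These intervals overlap too. At 5000 UMIs per cell a missing UMI does not show that a transcript is absent.

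By the same limits, 15 of 17 other integrin subunit genes were in the feature tables. Those at 20 CPM or more in an endothelial-like or collagen-high class were ITGA2B, ITGA3 and ITGA8, and ITGA11 and ITGB8 in the 21 aorta cells only, where they rest on 4 and 5 UMIs. ITGA8, an alpha chain of smooth muscle and mesangial cells that pairs with ITGB1, was at 78.6 CPM (298 UMIs) in lung collagen-high and 0.199 CPM (10 UMIs) in endothelial-like cells. Without the upper limit, aorta cells had 86.8 CPM (757 UMIs) against 0.114 CPM (4 UMIs), so ITGA8 stood further apart than any of the 9 genes on the collagen-high side. ITGA3, a laminin receptor chain, was at 51.2 and 58.2 CPM in lung and 50.7 and 33.8 CPM in the aorta. ITGA2B, known as the alpha chain of the platelet fibrinogen receptor with ITGB3, was at 50.4 CPM in collagen-high and 61.5 CPM in endothelial-like lung cells and at 47.2 and 61.6 CPM in the aorta without the upper limit.

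The genes that carry or receive the integrin signal showed no single direction. Of 29 activators and adaptors, 22 were at 20 CPM in lung, with 3 higher and 3 lower in collagen-high cells (median log2 ratio 0.25 against 0.00 over all genes). The aorta count was again 3 and 3 of 22. For this list and those below, 6.75% of all genes were called higher and 9.86% lower in lung. The shares in the aorta were 7.92% and 12.6%. FERMT1, kindlin-1, which activates integrins, was at 104 CPM in lung collagen-high and 518 CPM in endothelial-like cells, 4.97-fold lower (4.50 to 5.50), and at 86.4 and 382 CPM in the aorta. LIMS2, an adaptor of the integrin-linked kinase complex, was 3.09-fold lower in lung (52.2 and 161 CPM) and 3.24-fold lower in the aorta (36.3 and 118 CPM). Fibronectin and RGD ligands had 3 higher and 1 lower of 8 in lung, and 1 higher and 3 lower of 8 in the aorta. Laminin chains had 0 higher and 2 lower of 4 in both. LAMA1, the laminin alpha 1 chain, was at 4.75 CPM in lung collagen-high and 72.3 CPM in endothelial-like cells, 15.2-fold lower (9.61 to 25.7), and 3 UMIs against 2130 UMIs gave 0.344 and 60.5 CPM in the aorta. All 9 collagen genes at 20 CPM were higher in lung and 8 of 9 in the aorta. COL1A1 (5344 and 16.9 CPM in lung) and COL1A2 (5871 and 16.8 CPM) chose these cells, and COL3A1, which goes with them in fibrils, had the largest ratio in lung, 509 CPM against 1.45 CPM. Its aorta levels were 409 and 84.3 CPM, so it was also present in endothelial-like aorta cells. The aorta values of these lists are for cells without the upper limit.

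For 6 members above 50 CPM in a lung cluster, the 3 genes whose levels followed them best over the 12 lung clusters were taken among 2304 genes, by Pearson r of log2(CPM + 10). The points are clusters of 1 library that differ in depth and size, so r is a description, and it is followed by r without the smallest cluster of 40 cells and r over the 8 aorta clusters without the upper limit. ITGB3 went with HIPK1 (0.98, 0.98 and 0.65), COL5A1 (0.95, 0.95 and 0.84) and COL18A1 (0.94, 0.94 and 0.72). ITGA1 went with COL14A1 (0.91, 0.84 and 0.81), DUSP1 (0.90, 0.86 and 0.79) and AKAP12 (0.90, 0.88 and 0.88). ITGB5 went with HEG1 (0.97, 0.98 and 0.87), CD93 (0.97, 0.97 and 0.97) and DKK3 (0.97, 0.97 and 0.93), of which HEG1 and CD93 are surface proteins of endothelium. ITGB1 went with P4HB (0.95, 0.92 and 0.99), VCL (0.94, 0.92 and 0.89) and SERPINH1 (0.94, 0.94 and 0.94), of which VCL is the adhesion protein vinculin. ITGA5 went with CALR (0.96, 0.90 and 0.95), AHNAK (0.95, 0.86 and 0.94) and PLXNA2 (0.94, 0.85 and 0.97). ITGAV went with CLSTN1 (0.99, 0.94 and 0.98), PIEZO1 (0.99, 0.85 and 0.93) and DAG1 (0.98, 0.82 and 0.95), and its r in lung dropped most without the 40 cells, in which it was at 16.8 CPM.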

How the data were processed

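Primary cultures of pig lung and aorta ECs were profiled with 10x 3′ v3 chemistry. The authors deposited raw UMI counts per gene and barcode for each library, made with Cell Ranger 3.0.2 (per the submitters' processing notes) on Sscrofa11.1 with Ensembl gene models. The limits on detected genes and on 12 mitochondrial genes (ND1 left out) were those of the study. Barcodes were then clustered per library in Seurat 5.3.0 (R 4.3.3; LogNormalize to 10000 UMIs, 2000 variable genes less the marker and 24 integrin genes, 20 principal components, resolution 1). Collagen-high clusters had COL1A1 and COL1A2 at 20 CPM and 2-fold over the rest, endothelial-like clusters held 6 of 11 markers at 0.25 of the highest cluster, and immune-like or EndMT-like needed 3 raised markers. A cluster with a median depth under 0.333 of the library median was left unnamed when no marker of its class was among its leading genes. Scrublet (scanpy 1.11.5) called 5 lung and 1 aorta doublets, too few to have worked in lung, and none were removed. UMIs were summed per class in Python 3.11.15, with exact Poisson, conditional binomial (ratios) and Clopper-Pearson (shares) 95% intervals. Only the ratios and their intervals were tried on simulated counts. Those were drawn as Poisson, for genes at 20 CPM or more and class totals near those of lung, so they hold no spread between cells. All intervals cover counting error only, and UMIs of cells from 1 culture are not replicates. With 1 library per condition no p-value was computed. The members and lists were chosen with earlier results of these data known. The text names all 9 members, other integrin genes at 20 CPM, the 3 best-followed genes per member, and the list genes with the 3 largest ratios each way in lung at 50 CPM. Free RNA was not removed from the counts. Of 16 other settings tried, 1 was chosen after seeing the data.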

Additional observations from a re-analysis of the deposited data

How the results depend on the processing

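No paired analysis was possible because each condition has 1 library and no result comes from a test. Under 16 alternatives (cell limits, clustering, doublets, class rule, CPM per cell, threshold) 110 counts of called members stayed within 1.5 times their main value and 18 moved. In lung collagen-high against endothelial-like cells, 2 higher and 2 lower held throughout. In aorta these became 1 and 1 with the mean of CPM per cell, and ranged up to 3 and 3 under the others. For lung below aorta endothelial-like cells, 1 became 2 (ITGB5 joined) without cells under 1% mitochondrial UMIs, with 10 principal components, with integrin and marker genes kept, without the 5% highest Scrublet scores, with single-cell classes and at 1.5-fold. For lung above aorta collagen-high cells, 1 became 0 with a limit of 20% mitochondrial UMIs, a higher minimum of detected genes, 30 principal components, genes kept, Scrublet, single-cell classes and the added exclusion of cells with markers of the other class, and 2 with the mean of CPM per cell. Lung below aorta collagen-high went from 0 to 1 with that mean and at 1.5-fold. Under the added exclusion (15 aorta collagen-high cells left) 2 log2 ratios behind a call turned. ITGB4 in aorta collagen-high over endothelial-like cells went from -1.07 to 0.24. ITGB5 in lung over aorta collagen-high cells went from 1.37 to -0.50, and both were set by the floor of 3 counts. Ratios without a call also changed sign. In lung over aorta collagen-high cells, that exclusion took ITGA2 from 0.05 to -1.61. Without the upper gene limit, ITGA6 there went from -3.93 to 2.48, ITGB4 from -3.35 to 1.74 and ITGB3 from -0.95 to 0.28. In aorta collagen-high over endothelial-like cells, ITGA2 then went from 1.25 to -1.11 and ITGA6 from 2.84 to -5.00. Within the limits these uncalled ratios, except ITGB3, rest on 3 aorta UMIs or fewer per class. The aorta ratio of ITGB3 fell from 243 to 23.3 without the upper gene limit and to 18.9 with 30 principal components. The 21 aorta collagen-high cells thus limit each aorta result within the limits.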
